A study of Mus musculus with 3 samples.

Results

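The genes described here encode the protein subunits of the cytosolic ribosome. Gene rows were taken by symbol: names beginning Rpl or Rps followed by a digit, the stalk genes Rplp0, Rplp1 and Rplp2, and Rpsa, without the Rps6 kinase genes and without pseudogene names. The rule gave 86 of the 32701 genes listed in the deposited tables. Of these, 83 were listed in library 1 and 86 in the joint table. Rps19bp1 passed the letters of the rule, but it encodes a nucleolar protein that binds Rps19 and is not a subunit.

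The samples were pancreatic islet cells of mice carrying Ngn3-CreERT:R26-CAG-TdTomato, taken 10 days after tamoxifen. There were 6 mice and 3 samples, all of 1 group. Replicates 2 and 3 each pooled 2 mice, and the sample labels list no number of pooled mice for replicate 1. Every sample carried both alleles and had received tamoxifen. Ngn3 is the older name of Neurog3, whose promoter drives the tamoxifen-dependent Cre recombinase that switches on the red protein TdTomato. No Cre-negative or untreated sample was analysed here, so the comparisons below are between cell classes within these mice. Replicate 1 is called library 1. Replicates 2 and 3 share 1 joint table whose barcodes fall into 3 blocks, and no label ties a block to a replicate, so the joint table was counted as 1 library and n = 2 libraries throughout.

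Library 1 held 1146 cells with 27474046 UMIs (unique molecular identifiers, 1 per captured RNA molecule), and the joint table held 13042 distinct cells with 196833349 UMIs. After filters on size, mitochondrial share and doublets, 853 and 11072 cells were kept. Between 0 and 6 barcodes were shared by any pair of joint blocks or by a block and library 1. The joint table held no cell above 19.99% mitochondrial UMIs, whereas 255 cells of library 1 exceeded 20%. Cells were clustered without the ribosomal protein genes, and classes were named from marker genes as beta-like (408 cells in library 1 and 6194 in the joint table), alpha-like (155 and 1003), delta-like (85 and 477), endothelial-like (26 and 726), macrophage-like (43 and 235) and fibroblast-like (32 and 89). The leading genes of the macrophage-like cluster of library 1 also included Cxcl2 and Mmp12, and those of its fibroblast-like cluster C3 and Saa3. Hormone UMIs had a median of 1.05% in endothelial-like and 1.41% in macrophage-like cells of library 1, and of 11.2% and 10.7% in those of the joint table. Their part in the differences between tables was not tested.

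A ribosome has a large and a small subunit, each built of RNA and many proteins that are needed in equal numbers. The messenger RNAs of most of these proteins begin with a cytosine followed by a run of pyrimidines, the terminal oligopyrimidine tract, through which their translation is set together by growth signals. They are among the most abundant messengers of a cell. In islet endocrine cells they compete for sequencing reads with hormone messengers: insulin in beta cells, glucagon in alpha cells and somatostatin in delta cells. A share of all UMIs therefore depends on the hormone UMIs in the total, and each share is given here with and without the rows of Ins1, Ins2, Iapp, Gcg, Sst, Ppy, Pyy and Ghrl.

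All 86 members were protein coding in the GENCODE vM21 annotation and lay on 19 chromosomes. Their median transcript length was 713 bases, against 1952 bases for all protein-coding genes. A snoRNA gene, whose product guides chemical marking of RNA, lay inside 30 members (34.9%), against 1.18% of 21924 protein-coding genes. RefSeq starts were matched for 66 members. The start was a C followed by 4 pyrimidines (C or T) on the gene's strand in 13 of them (19.7%), against 2.49% of 27025 starts. A run of 8 or more pyrimidines within 5 bases of the start was present in 21 members (31.8%), against 9.63% of all starts. These matches describe the annotated start and not where each messenger begins in these cells.

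The starts of 8 members show 4 members with a C and 4 pyrimidines at the RefSeq start and 4 without. Each line gives 40 bases before and 20 bases from the RefSeq start, 5′ to 3′ on the gene's strand in GRCm38.p6, with the longest pyrimidine run near the start in capitals. Rps10, Rps18, Rpl14 and Rps27 begin with a C and 4 pyrimidines. Rps27l, Rpl7l1, Rps19bp1 and Rpl22l1 do not, although Rpl22l1 and Rps27l have runs of 10 and 9 pyrimidines near the start.
Rps10: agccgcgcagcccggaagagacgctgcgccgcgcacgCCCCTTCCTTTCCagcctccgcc
Rps18: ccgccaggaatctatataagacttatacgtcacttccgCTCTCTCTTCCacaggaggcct
Rpl14: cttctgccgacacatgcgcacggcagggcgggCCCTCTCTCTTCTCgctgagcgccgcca
Rps27: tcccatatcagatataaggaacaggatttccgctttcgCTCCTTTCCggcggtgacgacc
Rps27l: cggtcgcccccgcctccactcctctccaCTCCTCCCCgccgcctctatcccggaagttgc
Rpl7l1: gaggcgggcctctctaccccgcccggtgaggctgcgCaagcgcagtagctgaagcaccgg
Rps19bp1: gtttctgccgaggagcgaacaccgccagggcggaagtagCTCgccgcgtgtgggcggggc
Rpl22l1: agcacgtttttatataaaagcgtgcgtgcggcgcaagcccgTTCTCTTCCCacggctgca
Rps10 lies at chr17:27635225-27635284, Rps18 at chr17:33955646-33955705, Rps27 at chr3:90213629-90213688, Rpl7l1 at chr17:46782637-46782696 and Rps19bp1 at chr15:80264287-80264346, all on the minus strand. Rpl14 lies at chr9:120571477-120571536, Rps27l at chr9:66946046-66946105 and Rpl22l1 at chr3:28805468-28805527, all on the plus strand.

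Of the named classes, beta-like cells gave ribosomal protein genes the smallest share of their UMIs. As a share of all UMIs, the median beta-like cell held 2.87% (library 1) and 2.76% (joint table). The median alpha-like cell held 10.2% and 11.5%, and the median delta-like cell 10.1% and 9.87%. Hormone UMIs made up a median of 68.9% and 69.3% of the UMIs of beta-like cells, against 35.9% and 36.5% in alpha-like and 27.2% and 33.1% in delta-like cells.

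With hormone UMIs left out of the total, beta-like cells remained lowest of the endocrine classes, but by less. Their library 1 and joint medians were 9.53% and 9.36%, with quartiles of 8.60% to 10.4% and 8.01% to 10.7%. Alpha-like cells held 16.6% and 18.3%, and delta-like cells 14.5% and 14.9%. The Ppy-led cluster of the joint table, left without a class name, held 15.0%. An Sst-led joint cluster of 539 cells, also left without a class name and outside the delta-like class, held 12.8%. The delta-like share was 1.52 times the beta-like share in library 1 and 1.60 times in the joint table, and the alpha-like share 1.75 and 1.96 times. Over all UMIs the same ratios were 3.51 and 3.58 for delta-like and 3.56 and 4.15 for alpha-like cells. Within the 3 joint blocks the non-hormone ratio lay between 1.56 and 1.65 for delta-like and between 1.94 and 1.99 for alpha-like cells. With 2 libraries no exact test over samples can pass 0.05, so the shares are values without a test.

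Among the other classes, how endothelial-like cells stood against the endocrine mean depended on the total used. Endothelial-like cells held 11.2% of non-hormone UMIs in library 1 and 13.1% in the joint table, which was 0.829 and 0.925 times the mean of the 3 endocrine classes. Over all UMIs the same ratio was 1.45 and 1.44. Fibroblast-like cells held 15.1% and 18.4% of non-hormone UMIs, and pericyte-like cells (12 and 220 cells) 11.3% and 12.0%. B-like cells (75 cells, joint table) held 32.8% and T or NK-like cells (19 cells, joint table) 32.5%, the 2 highest medians of any named class. Schwann-like cells held 11.9%. The lowest cluster medians were 5.35% in a joint cluster of 626 cells led by the digestive-enzyme gene Clps and 5.15% in a library 1 cluster of 37 cells led by Gm26917. Both had high median mitochondrial shares, of 11.2% and 9.82%.

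The tables differed most in macrophage-like cells. The median share was 12.1% in library 1, with quartiles of 7.06% to 19.9%, and 24.1% in the joint table, with quartiles of 19.6% to 27.7%. The ratio of medians to the endocrine mean was 0.890 in library 1 and 1.70 in the joint table, so by medians the direction rested on the joint table. The library 1 direction also depended on the summary. From summed UMIs its macrophage-like share was 15.7%, against 9.58% in beta-like, 17.1% in alpha-like and 14.2% in delta-like cells, and so above the mean of these 3. Over all UMIs the ratio of medians in library 1 was 1.54. Within library 1, the 28 macrophage-like cells with 10 or more UMIs of C1qa, C1qb and C1qc, complement genes that mark macrophages, held 17.3%, and the 15 cells with fewer held 7.04%. The 15 cells had a median of 2551 UMIs, against 7285 in the 28.

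**Figure D1:**
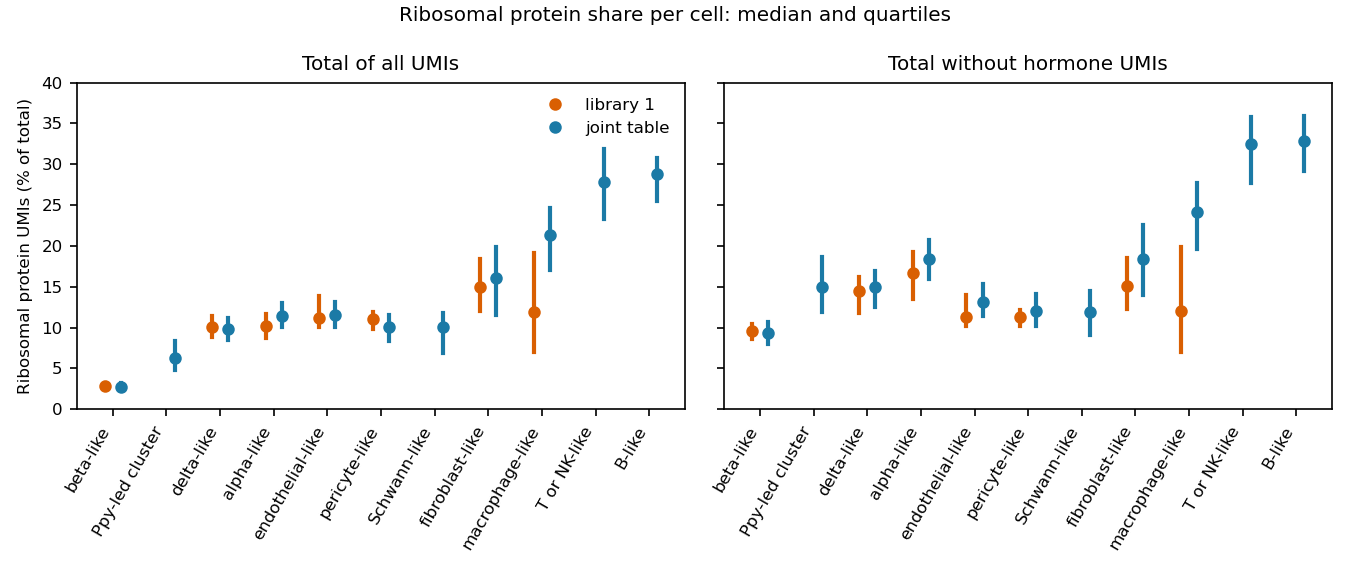
Ribosomal protein UMIs per cell as a percent of all UMIs (left) and of non-hormone UMIs (right), by cell class. Points are medians over cells and bars run from the first to the third quartile, in library 1 and the joint table. Beta-like cells are lowest in both panels, the gap to alpha- and delta-like cells narrows when hormone UMIs leave the total, and B- and T or NK-like cells are highest.

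The large and small subunits did not contribute in the same proportion in every class. Summed UMIs of large-subunit members were 1.37 and 1.42 times those of small-subunit members in beta-like cells, in library 1 and the joint table. The ratio was 1.31 and 1.34 in alpha-like, 1.29 and 1.31 in delta-like, 1.27 and 1.27 in fibroblast-like, 1.22 and 1.23 in endothelial-like, and 1.16 and 1.17 in macrophage-like cells. This order was the same in both tables. B-like cells were at 1.15 and T or NK-like cells at 1.18.

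Depth as such moved the share little in beta-like cells. Over quartiles of non-hormone UMIs, the median share in the joint table was 9.11%, 9.60%, 9.41% and 9.27%, from a median of 3977 to 9900 non-hormone UMIs. In library 1 it was 9.28%, 9.38%, 9.82% and 9.60%. Over single cells, Spearman's rho between the share and non-hormone UMIs was 0.028 for 6194 joint and 0.17 for 408 library 1 beta-like cells. The 2 quantities share the non-hormone total.

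Depth went with the share in some other classes. The library 1 alpha-like cells of the lowest depth quartile had a median share of 11.1%, against 17.2%, 18.7% and 17.4% in the other quartiles. Those cells had a median mitochondrial share of 13.5% of all UMIs, against 4.55% to 5.48% in the other quartiles. In the joint table the alpha-like quartiles ran 18.8%, 19.3%, 18.3% and 17.5%. The median delta-like share was lowest in the deepest quartile in both tables, at 13.7% (library 1) and 13.6% (joint table). Outside the endocrine classes, joint fibroblast-like quartiles ran 14.4%, 19.1%, 19.1% and 20.2%, and joint macrophage-like quartiles 21.4%, 23.2%, 25.4% and 24.7%.

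In the endocrine classes the share fell across cells as the mitochondrial share of non-hormone UMIs increased. In joint beta-like cells the median went from 10.4% in the lowest to 7.69% in the highest mitochondrial quartile, with a rho of -0.50. The same quartiles were 10.2% and 8.33% in library 1, with a rho of -0.41. In delta-like cells the lowest and highest quartiles were 16.2% and 10.8% in the joint table, and 15.0% and 10.2% in library 1. Macrophage-like cells shared this sign, with a rho of -0.34 in library 1 and -0.25 in the joint table. Endothelial-like cells did not: rho was 0.50 in the 26 of library 1 and 0.092 in the 726 of the joint table. In 220 joint pericyte-like cells rho was 0.31. Fibroblast-like cells had a rho of 0.029 in library 1 and -0.15 in the joint table. Mitochondrial UMIs are part of the total, so a higher mitochondrial share lowers every other share. With mitochondrial UMIs also left out, the rho in beta-like cells was -0.24 in the joint table and -0.10 in library 1. In alpha-like cells it went from -0.44 to -0.32 in the joint table and from -0.63 to -0.56 in library 1. For delta-like cells it went from -0.50 to -0.36 and from -0.46 to -0.39. The 236 library 1 cells of passing size that were left out for more than 20% mitochondrial UMIs had a median ribosomal protein share of 1.03% of non-hormone UMIs.

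In contrast, the share of non-hormone UMIs increased with a cell's hormone share. In joint beta-like cells the medians over hormone quartiles were 7.88%, 8.85%, 9.54% and 10.7%, with a rho of 0.53, and in library 1 they were 9.01%, 9.20%, 9.53% and 10.1%, with a rho of 0.34. The median mitochondrial share of all UMIs fell from 8.33% in the lowest to 3.70% in the third of the same joint quartiles. With mitochondrial UMIs out of the total the rho was 0.38 and 0.14. As a share of all UMIs the medians ran the other way, from 3.32% to 2.60% in library 1.

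**Figure D2:**
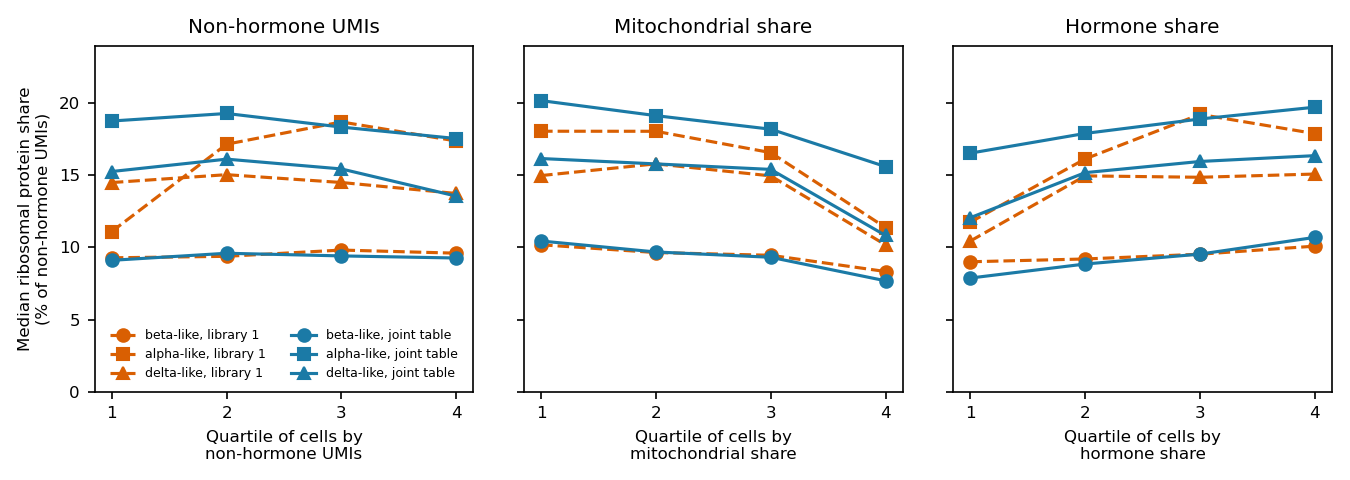
Median ribosomal protein share of non-hormone UMIs (percent) over quartiles of cells, ordered by non-hormone UMIs, by mitochondrial share of non-hormone UMIs and by hormone share of all UMIs. Solid lines are the joint table and dashed lines library 1, for beta-, alpha- and delta-like cells. Joint beta-like cells are flat over depth (9.11% to 9.60%), fall to 7.69% in the highest mitochondrial quartile and reach 10.7% in the highest hormone quartile.

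Levels of single genes are means over cells of UMIs per 10000 non-hormone UMIs. Each molecule is tagged near its 3′ end and counted once, so no length scaling was applied. The most abundant members over 6 classes and both tables were Rpl41, Rps24, Rplp1, Rpl13 and Rps29. Rpl41, a very short peptide of the large subunit, was at 35.2 in library 1 and 40.9 in the joint table in beta-like cells, and between 26.8 and 51.0 in all class columns of alpha-, delta-, endothelial-, macrophage- and fibroblast-like cells. Rps24, of the small subunit, was at 24.8 and 19.8 in beta-like, 44.0 and 42.3 in alpha-like and 32.0 and 29.8 in delta-like cells. Rpl41 thus led in beta-like cells, and in library 1 alpha-like cells it was below Rps24.

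Delta-like cells held more of most ribosomal protein messengers than beta-like cells. Of 83 members tested, 77 were higher in both tables and none was lower in both, with a median log2 difference of 0.62 against 0.03 over all genes. Over all 11674 genes, 4458 were higher and 3827 lower in both tables. Only 7 members were called higher and 0 lower by limma at an adjusted p of 0.05, while 3.19% of all 11674 genes tested were called higher and 2.62% lower. Unadjusted p was under 0.05 for 53 members and for 1959 of all 11674 genes. The fit took its spread from 6 classes in 2 tables, and the macrophage-like columns differed between tables in these genes. With the beta-, alpha- and delta-like columns alone, an alternative added after seeing the data, 70 members were called higher and 0 lower, against a background of 17.3% higher and 16.0% lower. The 7 called in the fit of all classes were Rpl35a, Rpl36a, Rpl23a, Rps27rt, Rps9, Rps3a1 and Rpl7.

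Rpl35a, a large-subunit protein mutated in some human Diamond-Blackfan anaemias, was at 13.5 in library 1 and 12.5 in the joint table in beta-like cells, and at 25.6 and 27.5 in delta-like cells. Its log2 difference was 1.03 ± 0.22 (SE, n = 2 libraries; limma adjusted p = 0.0243). Rpl36a, of the large subunit, went from 4.10 and 3.97 in beta-like to 7.48 and 8.16 in delta-like cells, a log2 difference of 0.94 ± 0.22 (limma adjusted p = 0.0340). Rpl23a, which sits where the new chain leaves the ribosome, was at 3.82 and 4.43 against 7.25 and 8.23, a difference of 0.90 ± 0.16 (limma adjusted p = 0.00906). For all 3 genes the tables did not overlap between classes. The 3 were picked for large differences of the same direction in both tables, so this lack of overlap adds no support. Rps4x, the X-linked small-subunit protein, had a difference of 0.92 ± 0.24 that missed the threshold (limma adjusted p = 0.0553).

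Some members lay near 0. Rplp0 and Rplp1, stalk proteins on which elongation factors dock, were almost level between delta-like and beta-like cells. Rplp1 was at 21.3 and 22.6 in delta-like and 19.9 and 21.9 in beta-like cells, a log2 difference of 0.07 ± 0.21 (limma adjusted p = 0.973), and that of Rplp0 was 0.05 ± 0.24. The third stalk gene, Rplp2, was at 14.0 and 16.8 in delta-like against 9.52 and 10.8 in beta-like cells. Rpl41 differed by 0.01 ± 0.22 and Rpl4, of the large subunit, by 0.09 ± 0.17. These genes were chosen here after their values were seen.

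Alpha-like cells differed from beta-like cells more than delta-like cells did in the median. Of 83 members, 80 were higher in both tables and 1 lower in both, with a median log2 difference of 0.85 against -0.05 over all genes. Over all 11674 genes, 3479 were higher and 5258 lower in both tables. The calls were 35 higher and 0 lower, against 2.42% of all genes called higher and 3.84% lower. With the endocrine columns alone 78 were called higher and 0 lower, against 10.9% and 22.0% of genes. Both comparisons use the same beta-like cells, and alpha-like against delta-like cells was not tested. Called members included the stalk genes Rplp1 (0.84 ± 0.21, limma adjusted p = 0.0437) and Rplp2 (0.95 ± 0.17, limma adjusted p = 0.00928), the latter at 18.0 and 21.5 in alpha-like cells.

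Rpl35a again stood at the top, at 29.6 in library 1 and 35.5 in the joint table in alpha-like cells, a log2 difference from beta-like cells of 1.32 ± 0.22 (limma adjusted p = 0.00723). Rpl36a was at 8.97 and 9.89, a difference of 1.21 ± 0.22 (limma adjusted p = 0.0101). Rpl13 was at 43.8 and 45.4 against 20.5 and 18.1, a difference of 1.21 ± 0.25 (limma adjusted p = 0.0204). Rps26, which lies at the exit of the messenger channel of the small subunit, was at 11.1 and 16.4 against 4.91 and 7.12, a difference of 1.19 ± 0.23 (limma adjusted p = 0.0144). All values in alpha-like cells lay above all values in beta-like cells for these 4 genes. They were picked for large differences of the same direction in both tables, so this too adds no support. Of the 4 members printed above with a C and 4 pyrimidines at the start, Rps10, Rps18 and Rpl14 were called higher in alpha-like cells, by 1.05, 1.04 and 1.10 on the log2 scale. Rps27 was at 0.78 ± 0.22 and did not pass (limma adjusted p = 0.0705), and in delta-like cells none of the 4 passed. Of the 4 printed without it, none passed in either comparison, with Rpl22l1 at 0.85 ± 0.23 in alpha-like cells (limma adjusted p = 0.0618). The called members Rpl35a, Rpl36a, Rpl13 and Rps26 also had no C and 4 pyrimidines at the RefSeq start. The 8 printed members are examples, and a link between the start and the difference was not tested. The 1 member lower in both tables was Rpl7l1, a diverged relative of Rpl7, at -0.35 ± 0.34 (limma adjusted p = 0.796).

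**Figure D3:**
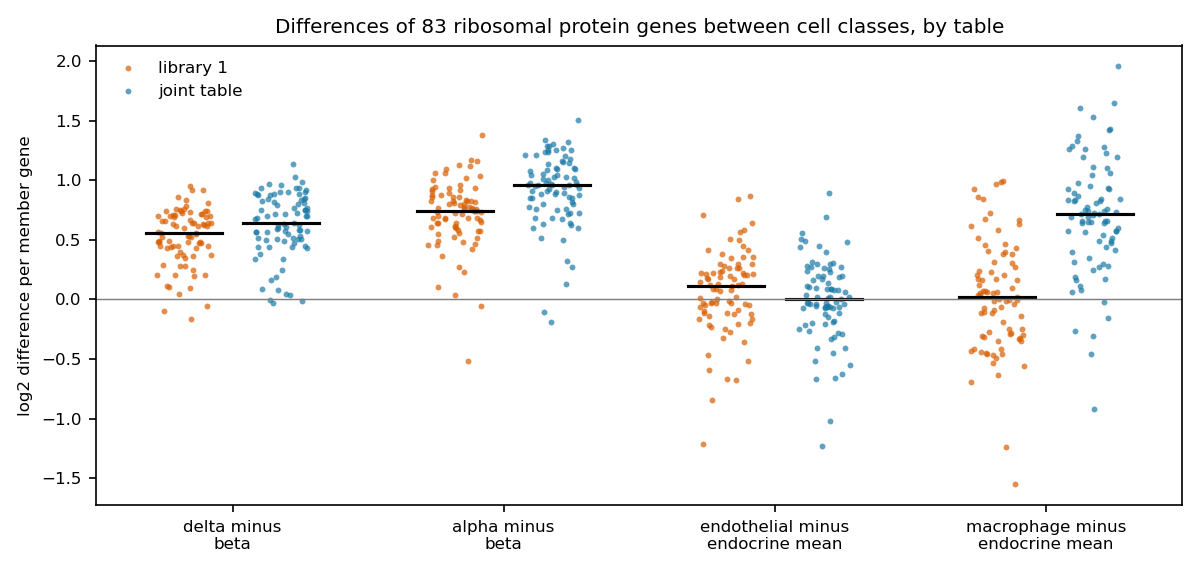
Log2 difference of each of 83 ribosomal protein genes between cell classes, 1 point per gene, in library 1 and the joint table. Black lines are medians over the genes. Delta-like and alpha-like cells lie above beta-like cells in both tables, the endothelial-like medians are 0.11 and 0.00, and the macrophage-like medians are 0.02 in library 1 and 0.72 in the joint table.

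Endothelial-like cells had no common shift of the members against the mean of the 3 endocrine classes. The median log2 difference was 0.08, against -0.21 over all genes, and 6 members were called higher and 5 lower, while 18.0% of all genes were called higher and 27.6% lower. Both shares of the members (6 and 5 of 83) were below that background. Those called higher included Rpl22, at a log2 difference of 0.63 ± 0.20 (limma adjusted p = 0.0256), and Rps16 of the small subunit, at 0.54 ± 0.19 (limma adjusted p = 0.0385). Rps16 was at 24.2 in library 1 and 22.2 in the joint table, against 11.1 and 9.82 in beta-like, 20.4 and 22.3 in alpha-like and 18.6 and 17.3 in delta-like cells. Its endothelial-like levels thus overlapped the alpha-like ones. Rpl7 and Rps19 were also called higher.

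Lower members included Rpl10, a protein that joins the large subunit late in its maturation. Rpl10 was at 13.0 and 9.31 in endothelial-like cells and at 16.7 and 10.5 in beta-like cells, with a log2 difference from the endocrine mean of -0.64 ± 0.20 (limma adjusted p = 0.0261). Rpl38, a large-subunit protein whose loss alters the skeleton of the mouse, was at 12.1 and 14.1 against 14.1 and 16.3 in beta-like cells, with a difference of -0.62 ± 0.15 (limma adjusted p = 0.00846). With all UMIs in the total both directions turned, to 0.20 for Rpl10 and 0.21 for Rpl38. Rps3a1 was called lower at -0.44 ± 0.15. The remaining 2, Rpl36al and Rpl22l1, are described with the paralogues.

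In macrophage-like cells 31 members were called higher and 2 lower than the endocrine mean, against 13.6% of all genes higher and 43.9% lower. The median log2 difference was 0.38, against -0.61 over all genes, but 0.72 in the joint table and 0.02 in library 1. Of 83 members, 43 were higher and 6 lower in both tables, against 2304 higher and 7193 lower of all 11674 genes. Rps29 of the small subunit was at 43.2 in library 1 and 88.3 in the joint table, against 16.0 and 18.7 in beta-like cells, a log2 difference from the endocrine mean of 1.31 ± 0.18 (limma adjusted p = 0.000299). Rpl39, a small protein lining the tunnel of the new chain, was at 26.1 and 50.6 against 12.5 and 13.4 in beta-like cells, a difference of 1.23 ± 0.21 (limma adjusted p = 0.000826). Rps9 differed by 1.21 ± 0.15 (limma adjusted p = 0.000149). Each of these 3 was higher in both tables, at 0.97, 0.86 and 0.99 in library 1 for Rps29, Rpl39 and Rps9. Rpl4 and Rpl41 were at -0.35 ± 0.14 and -0.31 ± 0.18 and did not pass (limma adjusted p = 0.0524 and 0.175), and with all UMIs in the total they were at 0.49 and 0.54.

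Several members have a paralogue that can take their place in the ribosome, and the balance within a pair differed between classes. Rpl22 is an RNA-binding large-subunit protein needed for T cell development in the mouse, and Rpl22l1 is its close relative, whose level rises in mice that lack Rpl22. Rpl22 lies at chr4:152325742-152334071 and Rpl22l1 at chr3:28805436-28807424 (GRCm38, both on the plus strand). In beta-like cells Rpl22l1 was at 6.78 and 6.11 (library 1 and joint table) and Rpl22 at 4.75 and 4.27, a ratio of 1.43 in both. The ratio was 1.49 and 1.43 in alpha-like and 1.30 and 1.31 in delta-like cells. It was 0.475 and 0.460 in endothelial-like, 0.316 and 0.271 in macrophage-like and 0.699 and 0.851 in fibroblast-like cells. In the joint table the Ppy-led cluster stood at 1.69, B-like cells at 0.406 and T or NK-like cells at 0.423. Every endocrine value was thus above 1 and every other value below 1, also within each joint block, where the endocrine ratios ran from 1.11 to 1.46 and the endothelial- and macrophage-like ratios from 0.213 to 0.494.

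Both genes of the pair contributed. Rpl22l1 was lower in endothelial-like cells, at levels of 5.09 and 4.41 and a log2 difference of -0.93 ± 0.19 (limma adjusted p = 0.00278). It was also lower in macrophage-like cells, at 3.11 and 4.72 and a difference of -1.24 ± 0.19 (limma adjusted p = 0.000442). Rpl22 was at 10.7 and 9.59 in endothelial-like cells and at 9.84 and 17.4 in macrophage-like cells, and was called higher in both. Rpl22l1 was also the most negative member in macrophage-like cells in both tables. The ratio itself was not tested.

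Rpl36al lies on chromosome 12 and encodes nearly the same protein as Rpl36a on the X chromosome. In the joint table Rpl36al exceeded Rpl36a in beta-like cells (9.89 against 3.97, a ratio of 2.49), was close to it in alpha-like cells (10.8 against 9.89, 1.10) and was below it in endothelial-like (0.582) and macrophage-like cells (0.615). In library 1 all ratios were lower, at 0.832, 0.366, 0.184 and 0.302 in the same classes. Rpl36al was lower in endothelial-like than in endocrine cells, at a log2 difference of -1.22 ± 0.14 (limma adjusted p = 0.000114), with -1.21 in library 1 alone and -1.23 in the joint table alone. In alpha-like against beta-like cells it differed by 0.04 ± 0.17, where its partner Rpl36a was called higher. The macrophage-like difference of -0.51 ± 0.14 (limma adjusted p = 0.0120) turned to 0.36 with all UMIs in the total and to 0.05 when the columns were centred on their median gene.

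**Figure D4:**
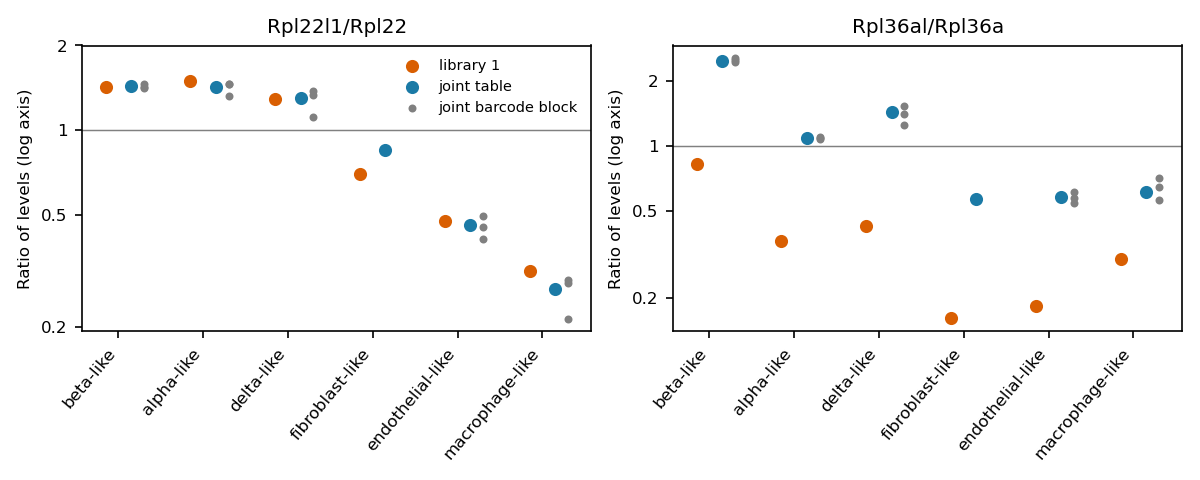
Ratio of the level of a paralogue to that of its partner, on a log axis, for Rpl22l1 over Rpl22 and Rpl36al over Rpl36a, by cell class. Coloured points are library 1 and the joint table, and small grey points are the joint barcode blocks. The Rpl22l1 ratio is above 1 in the 3 endocrine classes and below 1 in the other 3 in both tables, whereas the Rpl36al ratio keeps its beta-like maximum but lies lower in library 1.

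Rps27l, a relative of Rps27 that p53 activates in human cells, stayed between 2.65 and 4.40 in every column of the 6 classes. Its log2 differences in delta-like and alpha-like cells were -0.06 ± 0.18 and 0.19 ± 0.18. Rps27 was at 14.2 and 15.0 in beta-like, 22.8 and 27.9 in alpha-like, 24.1 and 27.9 in delta-like, and 64.9 in joint B-like cells. Rps27rt, a retrogene of Rps27, was at 1.15 and 0.647 in beta-like and 1.96 and 1.32 in delta-like cells (log2 difference 0.86 ± 0.20, limma adjusted p = 0.0401). Its reads can be shared with Rps27, so its values are uncertain. Rpl7l1 was at 0.573 and 0.448 in beta-like cells, where Rpl7 was at 7.76 and 5.78, and Rps19bp1 at 0.339 and 0.320.

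The tissue-restricted paralogues were nearly absent. Rpl10l had 0 UMIs in the joint table, Rpl39l 5 UMIs in 4 cells and Rpl3l 6 UMIs in 6 cells. In mammals Rpl10l and Rpl39l are known from the testis and Rpl3l from heart and skeletal muscle. Their partners were measured throughout, with Rpl10 at 16.7 and 10.5, Rpl39 at 12.5 and 13.4 and Rpl3 at 10.3 and 7.81 in beta-like cells. Rows named Rpl26l1 and Rps4l were not found.

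The tables gave close levels for most members but not for 3 of them. The level in library 1 over the joint table, averaged over beta-, alpha- and delta-like cells, had a median log2 of -0.01, and 76 of 83 members lay within 0.5 of it. Rpl13a was 11.8-fold higher in the joint table, at 15.2 against 1.07 in beta-like, 29.6 against 2.85 in alpha-like and 19.8 against 1.76 in delta-like cells. Rpl27 was 4.07-fold and Rpl36al 3.28-fold higher in the joint table. In the other direction Rps27rt was 1.62-fold, Rpl10 1.43-fold and Rps6, the target of the S6 kinases, 1.33-fold higher in library 1. A row named Rpl13a-ps1, listed in library 1, held 75 UMIs there, beside 1641 of Rpl13a, and Rpl27-ps3 held 541 beside 2872 of Rpl27. The tables differ in mice, in Cell Ranger version and in the genes listed, which cannot be told apart. Without Rpl13a the joint beta-like share was 9.20% and the alpha-like share 18.0%.

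**Figure D5:**
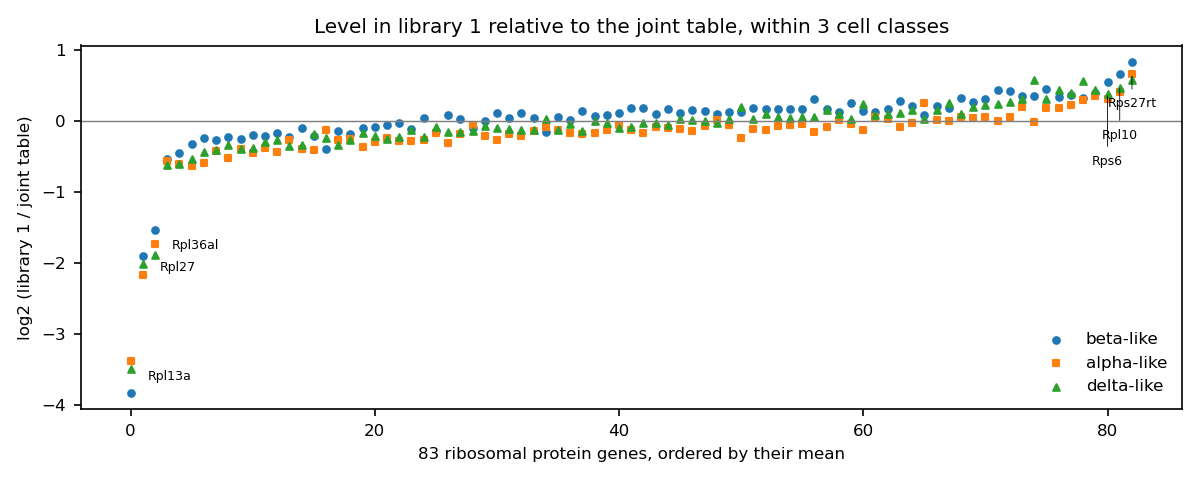
Level of 83 ribosomal protein genes in library 1 relative to the joint table (log2), by gene in the order of the mean, with 1 point for each of beta-, alpha- and delta-like cells. Most genes lie within 0.5 of 0, while Rpl13a, Rpl27 and Rpl36al lie below -1.5 in all 3 classes.

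Other gene lists of protein synthesis had smaller median differences between the endocrine classes than the members. Of 40 translation factors, 2 were called higher and 1 lower in delta-like than in beta-like cells, with a median log2 difference of 0.03. In alpha-like cells 5 were higher and 1 lower, with a median of 0.09. Over all genes 3.19% were called higher and 2.62% lower in delta-like cells, and 2.42% and 3.84% in alpha-like cells. Eef1a2, an elongation factor isoform known from neurons and muscle, was higher by 2.16 ± 0.36 in delta-like (limma adjusted p = 0.00737) and by 4.38 ± 0.36 in alpha-like cells (limma adjusted p = 0.000415). Eif4ebp1, which holds back the cap-binding factor Eif4e, was lower, at -1.47 ± 0.25 in delta-like (limma adjusted p = 0.00788) and -1.56 ± 0.25 in alpha-like cells (limma adjusted p = 0.00577). Naca, which binds chains as they leave the ribosome, was higher by 0.88 ± 0.17 in delta-like cells (limma adjusted p = 0.0156). Eif3b, Eif2s3x and Eef1b2 were the others with the largest differences, at -0.89 in delta-like and -0.61 and 1.12 in alpha-like cells, and did not pass. With the endocrine columns alone, 14 translation factors were called higher and 9 lower in delta-like cells, against 17.3% and 16.0% of all genes. For alpha-like cells that fit called 16 higher and 7 lower, against 10.9% and 22.0%.

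Of 29 ribosome assembly genes tested, 1 was called higher and 0 lower in both endocrine comparisons. This was Npm1, a nucleolar chaperone, at 1.14 ± 0.27 in delta-like (limma adjusted p = 0.0386) and 1.29 ± 0.27 in alpha-like cells (limma adjusted p = 0.0212). The median over the list was 0.07 and 0.03. Of 76 mitochondrial ribosomal protein genes, 0 were called in delta-like cells and 1 was called lower in alpha-like cells. In delta-like cells 2 of the 76 had an unadjusted p under 0.05, against 1959 of all 11674 genes. With the endocrine columns alone 5 were higher and 2 lower in delta-like and 1 higher and 12 lower in alpha-like cells, against 17.3% and 16.0% of all genes in the former and 10.9% and 22.0% in the latter.

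Against the endocrine mean, 6 translation factors were higher and 2 lower in endothelial-like cells, and 8 higher and 13 lower in macrophage-like cells. Eef1a2 was lower, at -2.18 ± 0.29 and -2.24 ± 0.29, and so was the helicase Eif4a2, at -0.83 ± 0.17 and -1.66 ± 0.17. Eif4ebp2 was higher by 1.41 ± 0.24 in endothelial-like cells, and Eif4ebp1 by 1.27 ± 0.20 in macrophage-like cells. Fau, which encodes a small-subunit protein fused to a ubiquitin-like part but does not carry an Rps symbol, was higher in macrophage-like cells by 1.45 ± 0.18. The assembly genes had 4 higher and 2 lower in endothelial-like and 2 higher and 11 lower in macrophage-like cells. Tsr1, needed for small-subunit maturation, was lower, at -1.69 ± 0.38 and -1.51 ± 0.38. Of the mitochondrial ribosomal protein genes, 5 were higher and 5 lower in endothelial-like and 2 higher and 32 lower in macrophage-like cells, with a median of -0.52 in the latter. Over all genes 18.0% were called higher and 27.6% lower in endothelial-like cells, and 13.6% and 43.9% in macrophage-like cells, with a median of -0.61 in the latter.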

How the data were processed

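Library 1 was deposited by the authors as raw UMI counts per gene and cell. The joint table was deposited as natural log (ln) values of scaled UMIs, with 1 added after scaling each cell to 10000. Per the submitters' processing notes, Cell Ranger 3.2.0 (library 1) or 5.0.0 (joint), cutadapt 2.5, FastQC 0.11.8 and Seurat (4.0.0 for the joint table) were used with the mm10 build. Whole UMI counts were recovered for 100% of joint values within 0.001 of a whole number. Of 16050 joint columns, 3008 were exact repeats and were dropped.

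Cells with under 1000 UMIs, under 500 genes or over 20% mitochondrial UMIs were left out, and 6 and 377 doublets were removed by score. Clustering used scanpy 1.11.5 (2000 variable genes without the members, 30 components, resolution 1). Classes were named only from listed markers. A cluster other than beta-like was given no class if its median Ins2 UMIs exceeded 5 times the median of the non-endocrine clusters. Means over cells per 10000 non-hormone UMIs, 1 per class and table, were tested as log2(level + 0.05) with limma 3.58.1, the library as a block, in 6 classes by 2 tables, for genes at 0.1 or more in 2 columns, with Benjamini-Hochberg adjustment over all 11674 genes. The fold change of a low gene is understated on this scale. The script was tested on simulated data. With 2 libraries, p-values measure the spread between these libraries and classes.

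The named genes were the 5 most abundant members, the 4 largest differences each way per comparison that had the same direction in both tables, the paralogues with their partners, the 3 largest table ratios each way, and the 2 largest differences each way of the translation and assembly lists. Some genes that this rule names are not reported here. The members and lists were chosen with earlier results of these data known. Alternatives included edgeR 4.0.16 and DESeq2 1.42.0 on summed counts.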

Additional observations from a re-analysis of the deposited data

How the results depend on the processing

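The delta-like count of 7 members called higher was 82 with all UMIs in the total, 2 without hormone and mitochondrial UMIs, 2 at resolution 0.5, 66 without doublet removal, 17 with at most 10% mitochondrial UMIs, 23 in cells of 2000 to 10000 non-hormone UMIs, 3 with columns centred on the median gene, 11 with a pseudocount of 0.5, 17 at a minimum level of 1, 1 with no replicate block, 3 with edgeR, 29 with DESeq2 and 70 in the endocrine columns alone. The alpha-like count of 35 was 81 with all UMIs, 22 without hormone and mitochondrial UMIs, 77 without doublet removal, 16 with no replicate block, 54 with edgeR, 74 with DESeq2 and 78 in the endocrine columns alone. The endothelial-like counts of 6 higher and 5 lower were 73 and 0 with all UMIs, 3 and 8 without hormone and mitochondrial UMIs, 21 and 14 without doublet removal and 3 and 1 with no replicate block. The higher count was 10 with DESeq2, and the lower count was 9 in the depth window, 2 after centring and 3 with edgeR. The macrophage-like counts of 31 higher and 2 lower were 79 and 0 with all UMIs, 64 and 1 after centring, 72 and 0 with edgeR and 77 and 0 with DESeq2. The lower count was 1 in the depth window and 1 with no replicate block. The fits without doublet removal, at resolution 0.5 and in the depth window also lost classes, as given below. Their counts cannot be put down to the named setting alone. Shares of all genes called are given above only for the main fit and the endocrine columns alone. The other counts here have no such background beside them and are not read as results about the members. With all UMIs in the total, the unequal hormone UMIs of the classes enter the level of every gene, not of the members alone.

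The endothelial-like median of the members was -0.019 without hormone and mitochondrial UMIs. Rpl7l1 in alpha-like cells was 0.49, and Rpl10 and Rpl38 in endothelial-like cells 0.20 and 0.21, with all UMIs. In macrophage-like cells, with all UMIs, centring, edgeR and DESeq2 in that order, Rpl36al was 0.36, 0.052, 0.15 and 0.19, Rpl4 was 0.49, 0.21, 0.39 and 0.42, and Rpl41 was 0.54, 0.25, 0.38 and 0.39. The cause was not tested.

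Taken as geometric means over the 2 tables, the delta-like over beta-like share ratio of 1.56 was 3.54 with all UMIs, 1.43 without hormone and mitochondrial UMIs and 1.63 in the depth window. The alpha-like ratio of 1.85 was 3.85 with all UMIs. The endothelial-like ratio of 0.876 was 0.973 from summed UMIs and 1.45 with all UMIs. The macrophage-like ratio of 1.23 was 2.02 with all UMIs, and ran from 0.890 to 1.70 when 1 table was left out. With macrophage-like cells of 10 or more C1q UMIs it was 1.47.

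Without doublet removal the macrophage- and fibroblast-like columns also left the fit, so that its counts changed by both at once and the macrophage-like comparison could not be formed. At resolution 0.5 and in the depth window the fibroblast-like columns left the fit as well. No joint block shared more than 5 barcodes with library 1, so none was left out. No paired analysis was possible because all samples belong to 1 group, and the block is the table. Leaving out 1 table leaves no residual spread, so only values are given. Intervals are not given for levels, since 2 libraries limit their precision.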
